A study of Mus musculus with 6 samples.

Results

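B cells of the developing mouse lung were taken from the cell annotation that the authors deposited, as all cells of the type B cell 1, the large B cell type, which is kept apart from the B-cell progenitors (pro-B cells). These were 2356 of 61839 cells, and they came from all 36 mice. C57BL/6 pups breathed 21% O2 (normoxia) or, at normal pressure, 85% O2 (hyperoxia), starting at birth. Lungs were taken on postnatal day (P)3, P7 or P14, which gave 6 groups of 6 mice. Both sexes were used. The paper states that the sexes were balanced at P14 but not at P3 and P7, and sex entered none of the tests here. Nursing dams were rotated between the cages, and the lungs were perfused and digested with Collagenase I, neutral protease and DNase before scRNA-seq, with no sorting of cells in the deposited libraries. The mice of an age were labelled with sample barcodes (MULTI-seq) and run in 2 pools, each with 3 normoxic and 3 hyperoxic mice of that age. One pool held both P3 and P7 mice, whereas the P14 pools held no other age.

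B cells carry a surface antibody, the B cell receptor, which signals through CD79A and CD79B and is tuned by co-receptors such as CD22. Newly formed B cells leave the bone marrow with surface IgM, gain IgD as they mature, and reach follicles of lymphoid organs under the guidance of the chemokine receptors CXCR4 and CXCR5. In the neonatal lung they are part of the lymphocyte pool that is built up after birth, and they present antigen on MHC class II.

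The markers were those of B cells. Among the 34 annotated types, B cells ranked first for *Cd79a* (1970 CPM, the UMIs of a gene per 1000000 UMIs of the type or mouse), *Ms4a1*, which encodes CD20 (1338), *Ighd* (406) and *Ighm* (5336), the constant regions of IgD and IgM. At least 3 of these 4 genes had a UMI in 94.3% of the cells. The pro-B type came second for each of them, with *Cd79a* at 1568 and *Ighm* at 4959 CPM, but *Ms4a1* at only 82.0. Markers of mature B cells also ranked first, as *Fcer2a* (CD23; 65.3 CPM) and *Cr2* (CD21; 15.3), but had a UMI in only 13.1% and 4.24% of the cells. Genes of earlier stages were also detected, with *Vpreb3*, which binds the antibody heavy chain in precursors (453 CPM, against 3509 in the pro-B type), in 47.5% of B cells, *Cd24a* in 46.0% and *Cd93* in 10.7%. The 13 genes of a pro-B and pre-B list summed to 866 to 2116 CPM per mouse. That list includes *Ebf1*, which also counts among the B cell transcription factors below, and its part in the sum was not tested. Of the other members, *Sox4* was at 43.8 and *Vpreb1* at 4.23 CPM. *Rag1*, which recombines antigen receptor genes in precursors, had a UMI in 0.679% of B cells, *Jchain*, which joins secreted antibody, in 1.27% and *Sdc1*, a plasma cell marker, in 1.83%. Since the types were clustered on the expression of these same cells and named by known markers, the ranks are a description. A *Cd3d*, *Cd3e* or *Cd3g* UMI was found in 63 B cells, or 2.67%.

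RNA of other types was present as well. The surfactant gene *Sftpc* had a UMI in 88.9% of B cells, at 986 CPM against 236601 in the alveolar type 2 (AT2) cells with the highest level. The summed level of 6 erythroid markers reached 15754 CPM in a hyperoxic and 6360 in a normoxic P7 mouse, and ranged from 5.79 to 2212 in normoxic P14 mice. At P14, the summed level of 8 T cell markers was between 17.2 and 79.8 CPM in 4 hyperoxic mice, but 460 in hyperoxic mouse 1 and 242 in hyperoxic mouse 3. The summed level of 5 NK cell markers reached 537 in hyperoxic P14 mouse 1 and was at most 5.79 in the normoxic P14 mice. The part of these other types in the results was not tested.

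B cells per mouse numbered 11 to 261 in the 35 mice with at least 10 B cells, with 40614 to 701845 UMIs per mouse and a median of 150335. The remaining hyperoxic P3 mouse had 9. The sample barcode by which a cell was assigned to its mouse was also its most frequent one in 2167 of 2356 B cells (92.0%). This share was lower in B cells than in other cells of every library except that of the second P14 pool (99.8% against 99.7%). The gap was widest in the second P3 pool (66.5% against 95.0%). In 132 B cells the most frequent barcode was not that of a mouse at the same oxygen level. It belonged to a mouse at the other level or to no mouse of the pool, which were not separated. Of these cells, 54 were assigned to normoxic P7, 47 to hyperoxic P14 and 25 to normoxic P3 mice. They made up 30 of the 35 B cells of hyperoxic P14 mouse 3 and 17 of the 49 B cells of hyperoxic P14 mouse 1, as well as 34 of 163 in normoxic P7 mouse 4, 16 of 75 in normoxic P7 mouse 6 and 19 of 49 in normoxic P3 mouse 4. Only 6 of the 46 B cells of hyperoxic P3 mouse 5 had its barcode as the most frequent. Whether these cells were assigned to the wrong mouse was not tested. The share of all cells and the genes changed by oxygen at P14 are therefore also given without discordant barcodes and without hyperoxic P14 mice 1 and 3. The shares of immune and lymphoid cells, the readouts per cell, the step from P7 to P14 in hyperoxia and the comparison with CD4+ T cells were not run without these 2 mice. Of 2356 B cells, 32 shared their cell barcode with a cell of another library and 2 with another B cell.

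The share of B cells was lower in hyperoxia at P14, and no difference was detected at P3 or P7. At P14, B cells made up 4.75% to 9.26% of the cells of a normoxic mouse, with a median of 7.57%. In hyperoxia they made up 2.31% to 4.68%, with a median of 3.14%. The groups did not overlap, although the lowest normoxic and the highest hyperoxic mouse lay close together. The means were 7.20% ± 1.93 and 3.29% ± 0.809 (SD, n = 6 each), a difference of -3.91 percentage points (two-sided exact permutation test, p = 0.00216, the smallest that 6 against 6 mice allow, and 0.0245 adjusted over 34 types and 3 ages). Of the 34 types, 32.4% passed this test at P14. The difference was -3.94 in one P14 pool and -3.88 in the other. With discordant barcodes left out it was -4.37 (adjusted p = 0.0276, exact permutation test). This filter kept 257 of 304 hyperoxic but 938 of 945 normoxic P14 B cells, and took hyperoxic mouse 3 from 2.31% to 0.431%. It removes mostly hyperoxic B cells and is thus no separate check of the difference. Without hyperoxic P14 mice 1 and 3 the difference was -3.67 (exact permutation test, p = 0.0143, where 4 against 6 mice allow 0.00476 at the smallest, adjusted p = 0.0911).

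**Figure D1:**
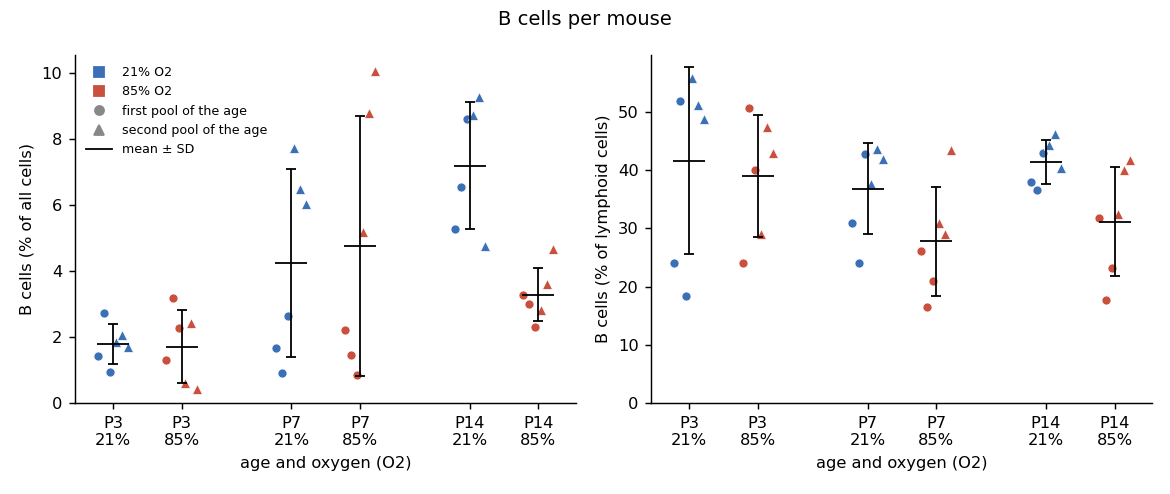
Share of B cells in each mouse by age and oxygen level, as a percentage of all cells (left) and of lymphoid cells (right); circles and triangles are mice of the first and second pool of an age, bars give the mean ± SD. At P14 the 6 hyperoxic mice lie between 2.31% and 4.68% of all cells and the 6 normoxic mice between 4.75% and 9.26%, whereas the P7 mice separate by pool.

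The size of the change at P14 depended on the denominator. As a percentage of immune cells, B cells made up 22.8% ± 3.81 in normoxia and 10.2% ± 3.46 in hyperoxia (SD, n = 6 each; exact permutation test, adjusted p = 0.0276). Among lymphoid cells alone the shares were 41.3% ± 3.75 and 31.2% ± 9.35, which did not pass the test (exact permutation test, adjusted p = 0.140), and the groups overlapped. The median number of B cells per CD4+ T cell was 1.32 in normoxia and 1.70 in hyperoxia at P14 (exact permutation test, adjusted p = 0.939 over 3 ages). Pro-B cells were few, with 33 cells in the normoxic and 8 in the hyperoxic P14 mice. Their mean shares of all cells, 0.257% and 0.0910%, did not pass the test (exact permutation test, p = 0.0584, adjusted p = 0.175). In a model of the numbers of cells (edgeR), the log2 ratio of hyperoxia to normoxia at P14 was -1.13 (adjusted p = 0.0793). Shares are relative, and numbers of cells per lung were not measured.

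At P3 the share was 1.79% ± 0.603 in normoxia and 1.71% ± 1.10 in hyperoxia, and at P7 it was 4.25% ± 2.85 and 4.76% ± 3.93 (SD, n = 6 each; exact permutation tests, p = 0.890 and p = 0.792). The wide spread at P7 followed the pools. Normoxic and hyperoxic P7 mice had means of 1.74% and 1.51% in the pool shared with P3, and of 6.75% and 8.02% in the other pool. The effect of hyperoxia was 3.84 percentage points more negative at P14 than at P3 (100000 permutations of oxygen labels within ages, p = 0.00756, adjusted p = 0.0957 over 68 tests), and thus did not pass after adjustment.

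B cells made up a larger share in normoxia at P14 than at P3. Their share was 5.41 percentage points higher at P14 than at P3 (exact permutation test, p = 0.00216, adjusted p = 0.0170), a comparison that 38.2% of the types passed. The steps from P3 to P7 (adjusted p = 0.225) and from P7 to P14 (adjusted p = 0.191) did not pass. As a percentage of immune cells, the share rose by 9.79 percentage points from P7 to P14 (exact permutation test, adjusted p = 0.0260). Among lymphoid cells alone it was 41.6% at P3 and 41.3% at P14. In hyperoxia the share of all cells was 1.57 percentage points higher at P14 than at P3 (exact permutation test, adjusted p = 0.116). No pool held P14 mice together with P3 or P7 mice, so age and pool cannot be told apart in these steps. Sex, which was unbalanced at P3 and P7, was not accounted for. In the pool that held both younger ages, normoxic mice had means of 1.71% at P3 and 1.74% at P7, against 6.75% at P7 in the other pool.

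Few genes of B cells passed the test of hyperoxia, and those that did were found at P14. The paper, in contrast, places the largest expression changes among lymphoid types in B cells and CD8+ T cells. The source of this difference was not tested. UMIs were summed over the B cells of each mouse, and 3355 genes were tested with edgeR. Calls of change required detection in 10% or more of the B cells on one side of the comparison, together with an adjusted p under 0.05. At P14, 3 genes changed (0.0894% of those tested), 2 higher (0.0596%) and 1 lower (0.0298%). *Tsc22d3*, whose product GILZ is induced by glucocorticoids and restrains inflammatory signalling, fell, whereas *Nme1*, a nucleoside diphosphate kinase, and *Ifi27l2a*, an interferon-inducible gene, rose. The 3 genes also passed in the fits with the pool as a replicate block, with DESeq2, without the low-count filter, with thinned counts and without discordant barcodes. Without hyperoxic P14 mice 1 and 3, only *Tsc22d3* passed.

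*Tsc22d3* (chrX:140539528-140600659, minus strand, GRCm38, the assembly that mm10 also names) was at 504 to 1005 CPM in normoxic P14 mice, with a median of 627. In hyperoxic P14 mice it was at 237 to 382, with a median of 275. The lowest normoxic mouse was above the highest hyperoxic one. The log2 fold change was -1.19 ± 0.189 (SE, n = 6 mice each; edgeR, adjusted p = 0.000282), and it was -1.13 without hyperoxic P14 mice 1 and 3 (adjusted p = 0.0192). At P3 and P7 every group had a median between 239 and 295, with fold changes of -0.17 ± 0.241 and 0.24 ± 0.193 that did not pass. Its response to hyperoxia at P14 was -1.43 ± 0.270 against that at P7 (edgeR, adjusted p = 0.00943), the 1 gene past this test (0.0298%), with 149 at an unadjusted p below 0.05 (4.44%). Against P3 no gene passed (270 at an unadjusted p below 0.05, 8.05%), and *Tsc22d3* was at -1.02 (edgeR, adjusted p = 0.374).

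*Nme1* (chr11:93956979-93968521, minus strand) was at 172 to 208 CPM in normoxic P14 mice, with a median of 181. In hyperoxic P14 mice it was at 239 to 395, with a median of 316. No mouse of one group reached the range of the other. The log2 fold change was 0.82 ± 0.154 (edgeR, adjusted p = 0.00443), and 0.74 without hyperoxic P14 mice 1 and 3 (adjusted p = 0.0811).

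*Ifi27l2a* (chr12:103442167-103443680, minus strand) was at 128 to 297 CPM in normoxic P14 mice, with a median of 206. The hyperoxic mice were at 435 to 729, with a median of 494. Again the groups did not overlap. The log2 fold change was 1.34 ± 0.270 (edgeR, adjusted p = 0.00950), and 1.38 without hyperoxic P14 mice 1 and 3 (adjusted p = 0.0811). Normoxic P3 mice spread widely for this gene, from 86.1 to 793 CPM. Among all genes tested, 25 had non-overlapping groups at P14 (0.745%), including these 3.

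**Figure D2:**
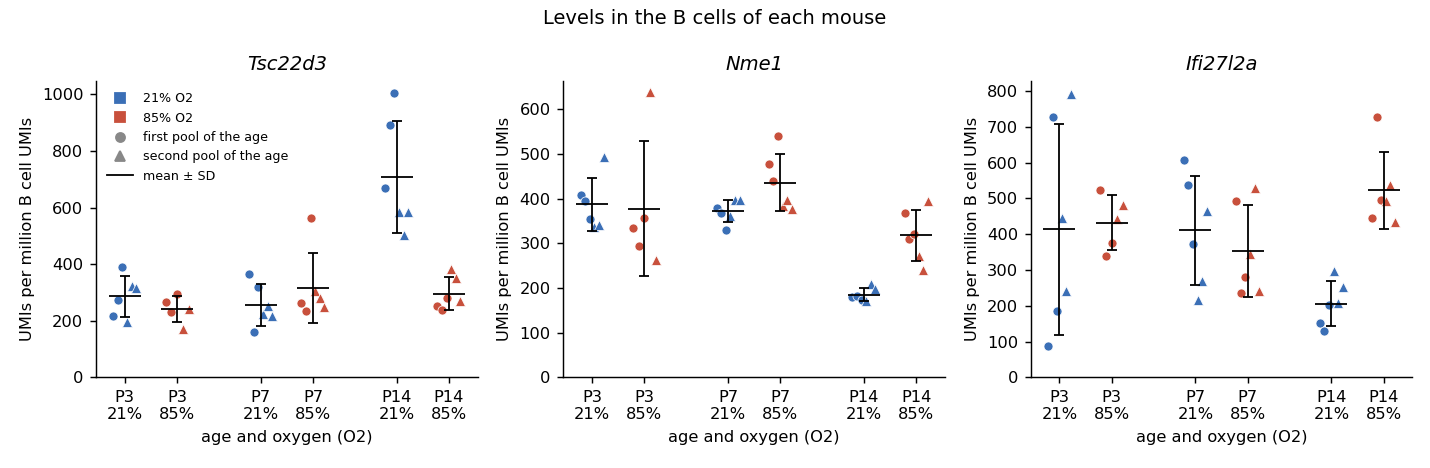
*Tsc22d3*, *Nme1* and *Ifi27l2a* in the B cells of each mouse, in CPM by age and oxygen level; circles and triangles are mice of the first and second pool of an age, bars give the mean ± SD. The normoxic P14 mice stand apart, above the hyperoxic ones for *Tsc22d3* (504 to 1005 against 237 to 382) and below them for *Nme1* and *Ifi27l2a*.

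The 3 genes were also followed between ages. From P7 to P14 in normoxia *Tsc22d3* rose by a log2 fold change of 1.39 ± 0.178, while *Nme1* (-1.08 ± 0.140) and *Ifi27l2a* (-1.003 ± 0.260) fell (edgeR, adjusted p = 2.2e-07, 2.6e-07 and 0.00294). This comparison shares the normoxic P14 mice, by whose levels the 3 genes were called, with the comparison of oxygen levels, and its ages lie in different pools. In hyperoxia the same step gave -0.04 ± 0.206 for *Tsc22d3*, -0.47 ± 0.150 for *Nme1* and 0.52 ± 0.271 for *Ifi27l2a*, of which *Nme1* passed (edgeR, adjusted p = 0.0289).

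No gene changed at P3 or P7, or in the model over all ages with age as covariate. At an unadjusted p below 0.05 there were 199, 106 and 225 genes (5.93%, 3.16% and 6.71%), and 288 at P14 (8.58%). DESeq2 found none at P3, at P7 or over all ages, and 7 at P14. Without the filter on low counts, edgeR called 2 genes at P3, 5 at P7, 8 over all ages and 8 at P14. Those at P14 included *Stmn1* (1.27), *Cd180*, a Toll-like receptor homologue of B cells (-1.11), *Ly6a*, an interferon-inducible surface protein (1.08), *Ranbp1*, a regulator of nuclear transport (0.85), and *Iglc2* (-0.57). The genes that DESeq2 added at P14 were *Pa2g4*, a growth regulator (0.96), *Ranbp1* (0.92), *Sec61g* of the protein translocation channel (0.71) and *Chchd2* (0.43 on the log2 scale). *Ranbp1* also passed with thinned counts and without discordant barcodes, as did *Ly6a* in the latter fit (1.37). In counts simulated for the comparison at P14, 77% of 2-fold and 97% of 4-fold changes were recovered, against 52% and 90% at P3. Small changes at P3 could thus be missed, and changes below 2-fold were not simulated at any age.

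No identity gene of B cells passed the test of oxygen at P14. The log2 fold changes were 0.04 ± 0.159 for *Cd79a*, -0.25 ± 0.135 for *Ms4a1*, 0.05 ± 0.186 for *Ighd* and -0.05 ± 0.115 for *Ighm*. Of 18 tested genes of B cell receptor signalling, 16 B cell transcription factors, 12 genes of follicular homing and 11 of MHC class II presentation, none changed. Their median log2 fold changes were -0.12, -0.11, -0.16 and -0.06, against 0.00 over all genes tested. Examples are *Cd79b* (-0.14 ± 0.107), *Ebf1* (-0.27 ± 0.151), *Klf2* (-0.16 ± 0.197) and *Cd74*, the invariant chain of MHC class II (0.06 ± 0.149).

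Lists for energy metabolism and translation had positive medians at P14, without calls. Of 73 nuclear genes of oxidative phosphorylation none changed, 18 had an unadjusted p below 0.05, against 8.58% of all genes, and the median was 0.25. For 74 ribosomal protein genes these values were 0, 14 and 0.16, and for 13 genes of hypoxia and glycolysis 0, 4 and 0.27. *Mif*, a cytokine whose gene responds to hypoxia, had a log2 fold change of 0.47 ± 0.177 (edgeR, adjusted p = 0.401) and *Cox4i1* of respiratory complex IV 0.14 ± 0.125. Among 20 antioxidant genes none changed (median 0.15), with the ferritin chain *Fth1* at 0.16 ± 0.122. Of 10 tested interferon response genes, *Ifi27l2a* rose (median 0.31), and of 8 glucocorticoid targets *Tsc22d3* fell (median -0.28). Of all genes, 0.0596% rose and 0.0298% fell. The lists were chosen with earlier results of these data known, so these calls are no separate support for either list.

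The same 3 genes were examined in other cell types at P14, which come from the same mice and are not further replicates. *Tsc22d3* was lower in hyperoxia in 17 of 20 other types in which it was tested, with a median log2 fold change of -1.24. CD4+ T cells, at -0.25 ± 0.202, were nearest to no change. *Nme1* was higher in 15 of 19 types (median 1.17) and *Ifi27l2a* in 7 of 9 (median 1.66). In alveolar macrophages *Ifi27l2a* was at -0.58 ± 0.367, which did not pass. By the same criterion, an adjusted p under 0.05, oxygen changed many genes in these types. Over the 20 types of *Tsc22d3*, between 0.0779% and 26.3% of all genes were lower (median 9.37%), and over the 19 types of *Nme1* between 0.818% and 27.0% were higher (median 11.7%). Over the 9 types of *Ifi27l2a*, between 0.818% and 27.0% of all genes were higher (median 6.51%). In CD4+ T cells *Nme1* was at 0.03 ± 0.198, whereas *Ifi27l2a* rose by 0.94 ± 0.228 (edgeR, adjusted p = 0.0244).

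**Figure D3:**
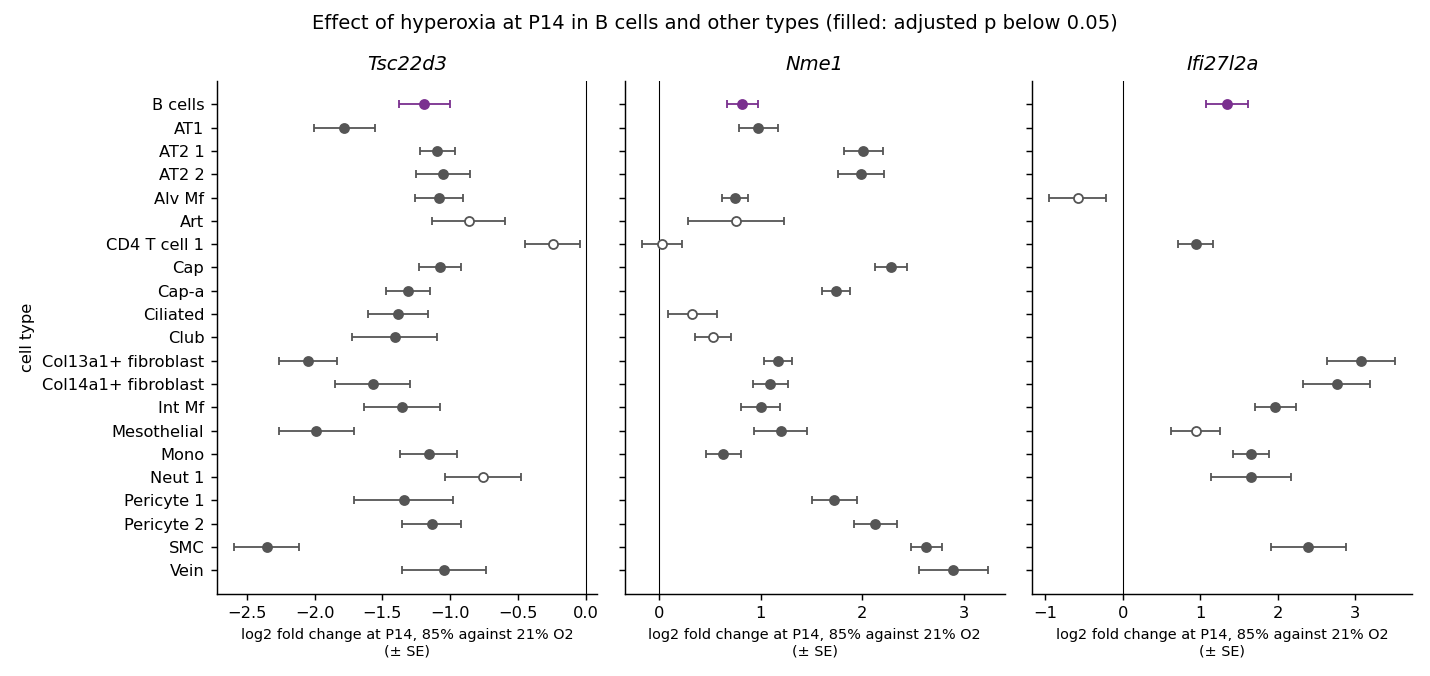
Log2 fold change ± SE of *Tsc22d3*, *Nme1* and *Ifi27l2a* at P14, hyperoxia against normoxia, in B cells (purple) and in the other types in which the gene was tested (grey); filled points have an adjusted p below 0.05 and type names are those of the annotation. B cells share the direction of most types for *Tsc22d3* (-1.19 against a median of -1.24), while CD4+ T cells lie at -0.25.

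A direct test in mice with both types compared the response of B cells with that of CD4+ T cells. Over all ages no gene of 3876 differed, with 197 at an unadjusted p below 0.05 (5.08%). At P14 alone, 17 of 3519 genes differed (0.483%), among them *Tsc22d3*, whose log2 fold change was 0.96 ± 0.196 lower in B cells (edgeR, adjusted p = 0.00154). For *Nme1* the difference was 0.75 ± 0.215 (edgeR, adjusted p = 0.124). Genes that mark the types themselves, such as *Igkc*, *Cd79a*, *Trbc1* and *Trbc2*, were also among the 17. So were genes of dividing cells, with *Mki67* at -3.64, *Top2a* at -3.15 and the histone gene *Hist1h1b* at -4.57. Hyperoxic P14 mice 1 and 3 had the highest levels of T cell markers in their B cells. The part of this in the 17 genes was not tested.

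The transition from P7 to P14 in normoxia changed far more genes than oxygen did by the same criteria. It changed 1149 of 3355 genes (34.2%), with 588 higher (17.5%) and 561 lower (16.7%) at P14, and 1491 had an unadjusted p below 0.05 (44.4%). From P3 to P14, 1236 genes changed (36.8%), with 1601 at an unadjusted p below 0.05 (47.7%). The groups did not overlap in 490 genes (14.6%), of which 459 changed. P14 cells had fewer UMIs than P7 cells and were run in other pools, so age and pool cannot be told apart. The part of sex, which was balanced at P14 only, was not tested. With all mice thinned to the same mean number of UMIs per B cell, 647 of 1962 genes changed, and 599 of them were shared with the 1149, all in the same direction. Without discordant barcodes, 1089 of 3504 genes changed, and 1024 were shared, again all in the same direction. Counts for gene lists are to be read against these shares of all genes, whose median was 0.01.

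The heavy chain genes rose. *Ighd* was at 159 to 353 CPM at P7, with a median of 253. At P14 it was at 539 to 739, with a median of 642. All P14 mice were above all P7 mice, with a log2 fold change of 1.17 ± 0.186 (edgeR, adjusted p = 9.6e-06). *Ighm* rose by 0.50 ± 0.115 and the lambda light chain gene *Iglc2* by 0.62 ± 0.227, though UMIs of close lambda genes can be exchanged in counting. *Cd79a* was at 0.02 ± 0.157 and *Ms4a1* at 0.27 ± 0.132, neither of which passed.

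Of 18 genes of B cell receptor signalling, 7 were higher at P14 and none lower (median 0.27), where 34.2% of all genes changed and 17.5% were higher. *Syk*, the kinase that binds the receptor's activated chains, was at 109 to 288 CPM at P7, with a median of 223. At P14 it was at 425 to 684, with a median of 477. The groups did not overlap, and the log2 fold change was 1.10 ± 0.149 (edgeR, adjusted p = 6.2e-07). The inhibitory co-receptors *Cd22* (0.86 ± 0.199) and *Cd72* (0.74 ± 0.205), and *Plcg2*, the phospholipase downstream of SYK (0.74 ± 0.198), rose too.

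Transcription factors of the lineage rose in 13 of 16 cases and fell in none (median 0.62), where 17.5% of all genes rose. These included *Bach2*, which restrains plasma cell formation (0.92 ± 0.173), *Foxo1*, required for B cell homing and survival (0.92 ± 0.193), *Pax5*, the keeper of B cell identity (0.82 ± 0.174), *Pou2af1*, a coactivator of octamer factors (0.70 ± 0.147), *Irf4* (0.68 ± 0.186) and *Ebf1* (0.52 ± 0.149). *Pax5* was at 149 to 382 CPM at P7 (median 303) and at 324 to 673 at P14 (median 567), with some overlap.

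Of 12 genes of follicular maturation and homing, 6 rose and 1 fell (median 0.50), where 17.5% of all genes rose. *Cxcr4* was at 39.0 to 116 CPM at P7, with a median of 54.8. At P14 it was at 214 to 292, with a median of 269. The groups were well apart, with a log2 fold change of 1.73 ± 0.214 (edgeR, adjusted p = 1.5e-07). *Zfp318*, which is needed for the expression of IgD, rose by 1.26 ± 0.217, *Klf3* by 0.74 ± 0.189 and *Cxcr5*, the receptor for the follicular chemokine CXCL13, by 0.66 ± 0.161. Of 5 genes typical of B-1 and marginal zone cells, 3 were lower, where 16.7% of all genes fell. These were *Ahr*, the aryl hydrocarbon receptor (-1.12 ± 0.236), *Cd9* (-0.65 ± 0.242) and *Mzb1* (-0.64 ± 0.150). The lists were not tested against each other.

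Immediate early and NF-κB genes rose in 10 of 28 cases and fell in none (median 0.38), where 34.2% of all genes changed and 17.5% rose. Among them were *Egr1* (1.002 ± 0.287), *Nfkbiz* (0.96 ± 0.247), *Fos* (0.89 ± 0.210) and *Zfp36* (0.82 ± 0.205). Glucocorticoid targets rose in 5 of 8 cases (median 0.67), namely *Cxcr4*, *Tsc22d3*, *Txnip*, *Pik3ip1* and *Dusp1*, some of which also respond to other signals. Of 11 tested genes for survival and costimulation receptors, 2 were higher and 1 lower (median 0.11), namely *Birc3* (0.85 ± 0.212), *Cd40* (0.68 ± 0.255) and *Bcl2a1b* (-1.43 ± 0.326).

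**Figure D4:**
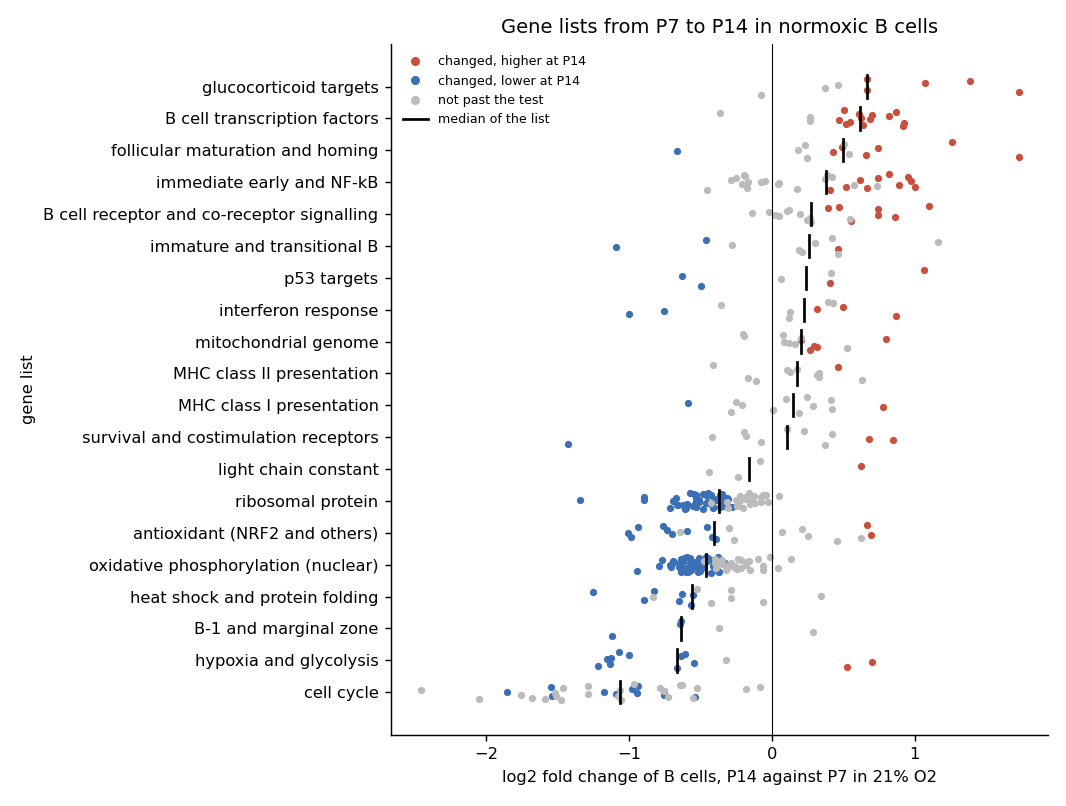
Log2 fold change of B cells at P14 against P7 in normoxia for the tested genes of 20 lists; each point is a gene, red and blue if it changed, grey if not, and the black bar is the median of the list. Changed B cell transcription factors, receptor signalling genes and immediate early genes lie to the right, and changed genes of the cell cycle, ribosome, oxidative phosphorylation and heat shock lists to the left.

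Many metabolic genes fell from P7 to P14, when 16.7% of all genes fell. Ribosomal protein genes fell in 52 of 74 cases (median -0.37), led by *Rpl9* (-1.34 ± 0.162) and *Rplp0* (-0.90 ± 0.113). *Rplp0* went from 4042 to 6057 CPM at P7 to 2572 to 3237 at P14, with no overlap. Nuclear genes of oxidative phosphorylation fell in 45 of 73 cases (median -0.46), as *Atp5g1* (-0.94 ± 0.150) and *Cox8a* (-0.65 ± 0.130) of ATP synthase and complex IV. Of the 13 mRNAs of the mitochondrial genome 5 were higher, including *mt-Nd3* (0.80 ± 0.148), and none lower (median 0.20), where 17.5% of all genes rose. Mitochondrial UMIs per B cell were 7.52% at P7 and 9.11% at P14. Genes of glycolysis and hypoxia fell in 10 of 13 cases (median -0.66), as *Ldha* (-1.15 ± 0.161), *Gapdh* (-1.13 ± 0.208) and *Mif* (-1.12 ± 0.157), while *Hif1a* and the mitophagy receptor *Bnip3l* rose.

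Antioxidant genes fell in 10 of 20 cases and rose in 2 (median -0.40). The peroxiredoxin *Prdx2* (-1.01 ± 0.161) and glutathione peroxidase *Gpx1* (-0.99 ± 0.152) were lower, whereas *Txnip* (0.67 ± 0.140), an inhibitor of thioredoxin, and *Nfe2l2*, which encodes NRF2, were higher. Chaperones fell in 7 of 14 cases, as the mitochondrial pair *Hspd1* (-1.25 ± 0.234) and *Hspe1* (-0.82 ± 0.160). Cell cycle genes fell in 11 of 35 cases and rose in none (median -1.06), where 34.2% of all genes changed and 16.7% fell. Among them were *Mcm6* of the replicative helicase (-1.85 ± 0.366), *Dut*, which removes dUTP (-1.54 ± 0.308), and *Stmn1*, a regulator of microtubules (-1.54 ± 0.403). The largest increases were in *Neurl3*, a ubiquitin ligase (2.04 ± 0.354), *Gramd4* (1.85 ± 0.305), *Pgap1*, which processes GPI anchors (1.85 ± 0.246), and the sorting receptor *Sorl1* (1.76 ± 0.219). Besides *Mcm6*, the largest decreases were in *Hbb-bs*, a globin gene of red cells (-2.44 ± 0.965), *Cks1b*, a partner of cyclin-dependent kinases (-1.75 ± 0.425), and *Erh* (-1.74 ± 0.292). *Hbb-bs* did not pass with DESeq2 (adjusted p = 0.168) or without discordant barcodes (edgeR, adjusted p = 0.0517). Summed erythroid markers were at 6360 and 6103 CPM in normoxic P7 mice 4 and 6, at 29.2 to 393 in the other P7 mice, and at 2212 in normoxic P14 mouse 3 against 5.79 to 40.1 in the other P14 mice.

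Genes of other types moved with this step. *Scgb1a1* of club cells rose by 0.87 ± 0.155 and *Mgp* and *Eln* of stromal cells by 1.29 ± 0.230 and 1.24 ± 0.229 in the counts of B cells. The summed level of 8 stromal markers was between 239 and 431 CPM at P7 and between 470 and 686 at P14. Monocyte and macrophage markers (128 to 216 and 256 to 559) and endothelial markers (108 to 214 and 226 to 321) did not overlap either, and epithelial markers had medians of 1835 and 2637. The pro-B and pre-B list was at 866 to 1741 CPM at P7 (median 1284) and at 1702 to 2116 at P14 (median 1955). In hyperoxic P14 mice it was at 1113 to 2040 (median 1621). This list includes *Ebf1*, a B cell transcription factor that rose in the same step, and is thus not a measure of precursors alone. The part of these lists in the age step was not tested. The normoxic mice of the second P3 pool had medians of 1525 to 1731 UMIs per B cell, near the 1611 to 1807 of the normoxic P14 mice. In these 3 P3 mice *Ighd* was at 108 to 266, *Syk* at 108 to 156 and *Cxcr4* at 66.5 to 156 CPM, below every normoxic P14 mouse. The genes were picked from those already seen to rise to P14. In normoxic P3 mouse 4, 19 of 49 B cells most often carried a barcode that was not of a mouse at the same oxygen level. This comparison was not tested and cannot tell depth from age or pool.

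The step from P7 to P14 was also tested in hyperoxic mice. From P7 to P14 in 85% O2, 441 genes changed (13.1%), with 237 higher (7.06%) and 204 lower (6.08%). Of these, 330 also changed in normoxia, all in the same direction, which is 28.7% of the normoxic and 74.8% of the hyperoxic list. Of the 1149 genes that changed in normoxia, 1100 had a fold change of the same sign in hyperoxia, whether or not it passed there. Mice of both oxygen levels were run in the same pools, so a difference between pools enters both steps with the same sign. The shared direction thus cannot tell age from pool. *Ighd* rose by 1.21 ± 0.201, *Bach2* by 1.12 ± 0.208, *Pax5* by 0.80 ± 0.192, *Syk* by 0.73 ± 0.165 and *Cxcr4* by 0.85 ± 0.265 (edgeR, adjusted p of 0.000116, 0.000658, 0.00484, 0.00335 and 0.0264). *Cxcr5* was at 0.04 ± 0.205 and *Fos* at 0.46 ± 0.249, and neither passed. Fewer list members passed than in normoxia, with 5 transcription factors, 25 ribosomal protein genes and 11 genes of oxidative phosphorylation. MHC class II genes rose in 5 of 11 cases (median 0.54), against 1 of 11 in normoxia (median 0.18). The test of the difference between the oxygen levels in this step called *Tsc22d3* alone. Hyperoxic P14 mice held 304 B cells and normoxic P14 mice 945.

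Between P3 and P7 in normoxia, 15 genes changed (0.447%), 14 higher (0.417%) and 1 lower (0.0298%). Of 11 tested MHC class II genes, 4 were higher (median 0.78) and none lower, but none of the 4 passed with a term for each pool (edgeR, adjusted p = 0.123 to 0.358). Their log2 fold changes with that term were 0.86 for *H2-Aa*, 0.80 for *H2-Ab1*, 0.72 for *H2-DMa* and 0.63 for *H2-Eb1*. *H2-Ab1* was at 407 to 967 CPM at P3, with a median of 594. At P7 it was at 896 to 1230, with a median of 1185. The groups overlapped slightly, and the log2 fold change was 0.92 ± 0.185 (edgeR, adjusted p = 0.00964). *H2-DMa*, which loads peptides (1.04 ± 0.221), *H2-Aa* (0.87 ± 0.200) and *H2-Eb1* (0.81 ± 0.168) rose as well.

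Among the genes that changed from P3 to P7, the largest fold change was that of *S100a6*, a calcium-binding protein, which was at 21.5 to 117 CPM at P3 (median 72.0) and at 169 to 775 at P7 (median 647). The groups did not overlap, and the log2 fold change was 2.94 ± 0.548 (edgeR, adjusted p = 0.00377). *P2ry10*, a lysophospholipid receptor (2.01 ± 0.452), *Ly6a* (1.70 ± 0.403), *Wdfy1* (1.64 ± 0.411), *Tle3*, *Midn*, *Neat1*, *Adgre5*, *Atp2b1* and *Ubl3* also rose, and *BC035044* fell by 1.29 ± 0.292 on the log2 scale. With a term for each pool, which is estimable through the pool that held both ages, 6 genes passed, and only *S100a6* and *Wdfy1* were shared. Without discordant barcodes *H2-Ab1* passed (edgeR, adjusted p = 0.0207) and *Wdfy1* did not (edgeR, adjusted p = 0.0667). In hyperoxia no gene changed from P3 to P7 (240 at an unadjusted p below 0.05, 7.15%), and the difference between the oxygen levels in this step was not tested.

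Readouts per cell were compared between ages as well, and since they count UMIs of the same cells as the levels above, they are not separate evidence. In each mouse, B cells were thinned to 1000 UMIs and the 86 B cells with fewer were left out, 36 of them in normoxic and 4 in hyperoxic P14 mice. In normoxia the share of B cells with an *Ighd* UMI was 14.1% to 31.1% at P7, with a median of 22.9%. At P14 it was 39.4% to 51.7%, with a median of 43.6%. All P14 mice were above all P7 mice, and the means were 22.5% and 45.1% (exact permutation test, p = 0.00216, adjusted p = 0.00722 over 10 tests). Without thinning the means were 54.1% and 58.9%. Over all ages and without thinning, 54.8% of B cells had an *Ighd* UMI at a median of 2181 UMIs per cell. The share was 0.278% in AT2 cells (median of 9297 UMIs), 1.51% in CD4+ T cells (2726) and 5.15% in CD8+ T cells (3646).

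The share of B cells with a UMI of 10 cell cycle genes fell from 13.3% at P7 to 4.53% at P14 in normoxia (exact permutation test, adjusted p = 0.0162). It was 6.13% to 41.7% at P7, with a median of 7.50%, and 3.13% to 6.52% at P14, with a median of 4.29%. The groups overlapped, and the highest P7 value was that of a mouse with 12 B cells. The median number of UMIs per B cell fell from a mean of 4005 to 1714, and mitochondrial UMIs rose from 7.52% to 9.11% (exact permutation tests, adjusted p = 0.00722 for both).

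**Figure D5:**
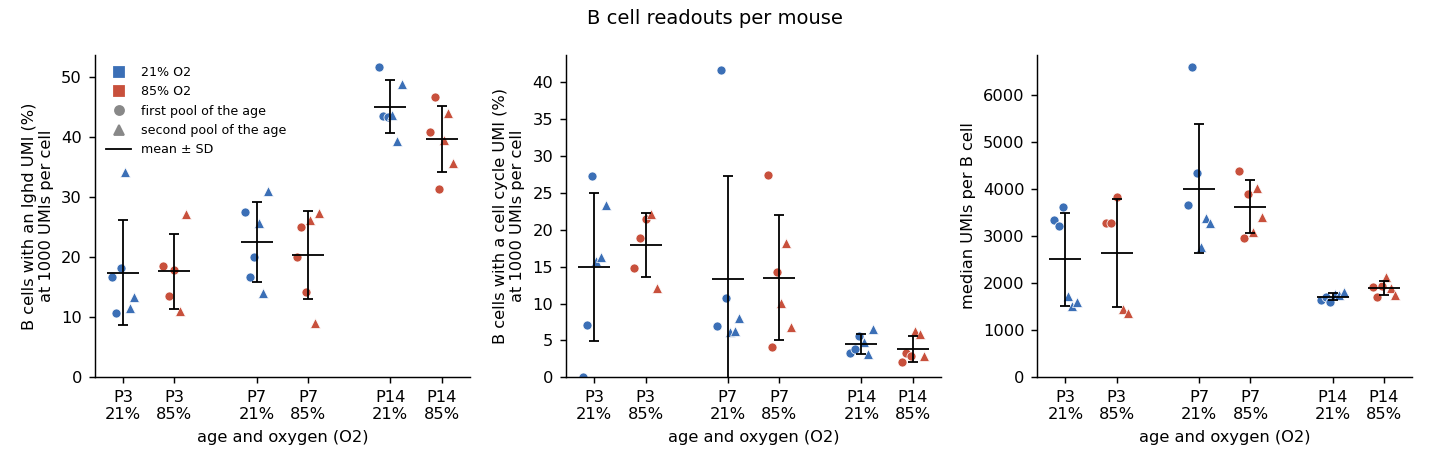
Share of B cells with an *Ighd* UMI (left) and with a UMI of 10 cell cycle genes (middle), both after thinning to 1000 UMIs per cell, and the median number of UMIs per B cell (right), in each mouse by age and oxygen level; circles and triangles are the first and second pool of an age, bars give the mean ± SD and are cut at 0. The *Ighd* share of the normoxic mice lies between 39.4% and 51.7% at P14 and at or below 34.2% before.

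None of these readouts differed between oxygen levels after adjustment over 5 readouts and 3 ages. At P14 the *Ighd* share was 45.1% ± 4.42 in normoxia and 39.7% ± 5.54 in hyperoxia (SD, n = 6 each; exact permutation test, adjusted p = 0.747). The cell cycle share at P14 was 4.53% ± 1.36 and 3.87% ± 1.75 (exact permutation test, adjusted p = 0.864). The median number of UMIs per B cell was 1714 ± 78.8 and 1889 ± 150 (exact permutation test, p = 0.0260, adjusted p = 0.390). Lambda constant genes took 39.2% ± 2.78 of light chain UMIs in normoxia and 39.5% ± 6.09 in hyperoxia (exact permutation test, adjusted p = 0.978). Of 2059 B cells with at least 10 light chain UMIs, 1620 had between 10% and 90% lambda, although a B cell as a rule uses a single light chain. The source of the mixed light chain UMIs was not tested.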

How the data were processed

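Lung cells of 36 mice were measured by 10x scRNA-seq in 6 libraries. The authors deposited a table of UMI counts per gene and cell (22100 genes, 61839 cells) after their quality filters, a cell annotation with mouse, age, oxygen level and cell type, and counts of sample barcodes per cell. Per the labels the reads were aligned to mm10 with Cell Ranger (3.0.2), and the study's methods name deMULTIplex, Seurat integration and removal of cells above 20% mitochondrial UMIs. The authors also deposited that percentage per cell. Cell types were taken from the annotation and no doublet caller was run here. Total counts per cell matched the annotation in every cell.

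UMI counts of B cells were summed per mouse. Mice with at least 10 B cells entered 1 fit (35 mice, TMM, filterByExpr, edgeR 4.0.16 quasi-likelihood test, limma 3.58.1, R 4.3.3), with 6 group means, or with age as covariate over all ages. p-values were adjusted by Benjamini-Hochberg over all genes tested, and the standard error of a fold change was taken from its F statistic. Depth per mouse limits what can be seen, and intervals cover the spread between mice only. Shares and readouts were tested over mice by two-sided exact permutation (Python 3.11.15, scipy 1.17.1), with 100000 resamples for differences between ages. DESeq2 1.42.0, no filter on low counts, at least 25 B cells, thinned counts, no immunoglobulin genes and the pool as a block were the alternatives. Those on discordant barcodes, on hyperoxic P14 mice 1 and 3, on a term for each pool and on thinning between ages were chosen after seeing the data, as were the tests in 85% O2, of P14 against P7 in the effect of oxygen, and of B against CD4+ T cells at P14.

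The members and gene lists were chosen with earlier results of these data known. Named genes were the 4 markers, the changed genes of each comparison with the largest fold changes in either direction (average log2 CPM of at least 5), the leading changed members of each list, or its most abundant member where none changed. *Hif1a*, *Bnip3l*, *Dusp1* and *Nfe2l2*, the genes that other settings added at P14, *Trbc1*, *Mki67*, *Top2a*, *Hist1h1b*, *Sox4*, *Vpreb1*, and the remaining genes that changed from P3 to P7 fall outside this rule and were named after their values were seen. The test recovered 88% of 2-fold and 99% of 4-fold changes in counts simulated for P7 against P14. Mice of 1 pool deviated together more than mice of different pools, with median correlations over 3352 genes of 0.0917 against -0.0823 at P3, 0.142 against -0.0910 at P7 and 0.0884 against -0.0862 at P14, but no numbers pair single mice. Gene positions are those of GENCODE on GRCm38.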

Additional observations from a re-analysis of the deposited data

Results flagged for a closer look

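In 42 groups of mice and measures, 4 held a mouse whose gap to the nearest other exceeded Dixon's critical value, where chance gives about 1 in 20 groups. Hyperoxic P14 mouse 3 had 9.96% mitochondrial UMIs per B cell, against 9.01% to 9.30% in the other mice of its group. It is also the mouse in which 30 of 35 B cells most often carried a sample barcode other than its own. Normoxic P7 mouse 2 had cell cycle UMIs in 41.7% of its 12 B cells, against 6.13% to 10.8% in the others. Normoxic P3 mouse 4 had an *Ighd* UMI in 34.2% of its thinned B cells, against 10.7% to 18.2%. In this mouse, 19 of 49 B cells most often carried a barcode not of a mouse at the same oxygen level. *Ifi27l2a* reached 729 CPM in hyperoxic P14 mouse 2, against 435 to 539 in the others, on the side away from normoxia.

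Effects of oxygen were also compared between ages and cell types. On the share of B cells it was -0.0744 percentage points at P3 but -3.91 for P14 mice, a difference of -3.84 that passed before but not after adjustment (p = 0.00756, adjusted p = 0.0957, 100000 permutations). For *Tsc22d3* the effect differed by -1.43 on the log2 scale between P14 and P7 (edgeR, adjusted p = 0.00943), but between P14 and P3 the difference of -1.02 did not pass (edgeR, adjusted p = 0.374), nor did any other gene (270 at an unadjusted p below 0.05, and 1 passed with DESeq2). Between B cells and CD4+ T cells it differed by -0.96 at P14 (edgeR, adjusted p = 0.00154) and by -0.41 over all ages, which did not pass (edgeR, adjusted p = 0.901).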

How the results depend on the processing

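Of the results on groups, 109 kept their direction and their side of the threshold under an alternative, 19 counts moved by more than 1.5 times, 18 values changed sign, 3 lost and 1 gained the threshold; of those on named genes, 223 kept and 42 lost it, all of the latter in the same direction. The cause of these changes was not tested. For the share at P14, the call was lost as a percentage of lymphoid cells (-10.2), in the edgeR model of cell numbers (-1.13 on the log2 scale) and without hyperoxic P14 mice 1 and 3 (-3.67). The pool as a replicate block gave an adjusted p of 0.0464 for it (exact permutation test), 1 changed gene over all ages against 0, and altered no other call. The effect at P7, which did not pass, changed sign as a percentage of lymphoid (-8.99) or immune cells (-1.32) and without the mouse with the fewest cells (-0.293). As a percentage of lymphoid cells, P7 against P3 (-4.83) and P14 against P3 (-0.260) changed sign in normoxia, and as a percentage of immune cells P14 against P7 passed (9.79).

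Differences in readouts that did not pass changed sign without thinning for the cell cycle share at P7 (-1.96) and P14 (1.23) and the *Ighd* share at P7 (1.56) and P14 (2.58). Without discordant barcodes they did so for mitochondrial UMIs at P3 (-0.0475), cell cycle at P7 (-1.11), lambda at P14 (-0.212) and *Ighd* at P3 (-4.35). Leaving out 1 hyperoxic P3 mouse in turn gave differences at P3 from -161.75 to 457 in median UMIs and from -2.21 to 1.83 in the *Ighd* share.

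Counts of changed genes moved with DESeq2 to 7 at P14 and 1 for P14 against P3 in the effect of oxygen. Without the filter on low counts they were 8 over all ages, 2 at P3, 5 at P7, 8 at P14, 59 from P3 to P7 and 5 for P14 against P3. With at least 25 B cells per mouse they were 38 from P3 to P7 and 5 for P14 against P3, and with 1 hyperoxic P3 mouse left out 0 to 1 for the latter. Thinned counts, with 1962 genes tested, gave 7 calls from P3 to P7 against 647 from P7 to P14. Without discordant barcodes 5 genes changed at P14 and 8 from P3 to P7, with a term for each pool 6 from P3 to P7, and without hyperoxic P14 mice 1 and 3 1 at P14. Depth was lowest at P3, where 52% of simulated 2-fold changes were recovered.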

Other observations

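Ligands that act on B cells and their precursors were measured in the other cell types of the same lungs, over all ages with age as covariate. Of 32 pairs of 7 ligands and 14 types, 6 were higher and 5 lower in hyperoxia by the criteria used for B cells, an adjusted p under 0.05 (edgeR, over the genes of each type) and detection in 10% of the cells of a group. In the 8 types with such a pair, 1.70% to 18.3% of all genes were lower and 2.62% to 20.9% higher. *Cxcl12*, the ligand of CXCR4, was lower in capillary endothelial cells of the types Cap (-0.83 ± 0.166, where 13.9% of genes were lower) and Cap-a (-2.66 ± 0.312, 17.5%), and higher in *Col13a1*+ fibroblasts (1.54 ± 0.209, 8.51% higher) and cells of the type SMC (0.77 ± 0.244, 19.2%). *Kitl*, the stem cell factor, was higher in Cap (0.61 ± 0.101), in vein cells (0.58 ± 0.136) and slightly in *Col13a1*+ fibroblasts (0.17 ± 0.0658), and lower in mesothelial cells (-0.67 ± 0.125) and pericytes of the type Pericyte 2 (-1.86 ± 0.204). In *Col14a1*+ fibroblasts *Tnfsf13b*, which encodes the B cell survival factor BAFF, was higher (0.82 ± 0.213) and *Flt3l* lower (-0.64 ± 0.148). A further 5 pairs had an adjusted p under 0.05 but missed the detection criterion. These were *Cxcl13*, the ligand of CXCR5, in *Col13a1*+ (2.47 ± 0.556) and *Col14a1*+ fibroblasts (2.21 ± 0.382), *Il7* (1.61 ± 0.281) and *Tnfsf13b* (1.15 ± 0.262) in *Col13a1*+ fibroblasts, and *Flt3l* in SMC (-2.56 ± 0.355). The relation of these levels to the B cells of the same mice was not tested. In the type SMC, 3387 of 9737 genes changed with oxygen, whereas the paper describes few changes in its small cluster of fibromyocytes and smooth muscle cells. In the type Myofibroblast, 4 of 3209 genes changed, whereas the paper describes a large shift in expression in its myofibroblasts at P14. Which clusters of the paper these labels name was not tested.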
